A study of Mus musculus with 8 samples.

Results

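The 10 genes described here are Lce1a1, Lce1a2, Lce1b, Lce1c, Lce1d, Lce1e, Lce1f, Lce1k, Lce1l and Lce6a, which encode late cornified envelope proteins. They are 9 of the 14 Lce1 genes of the mouse, with Lce6a, out of 5080 genes named in the authors' deposited table of changed genes. They were chosen as rows of that table by gene symbol, so their difference between the genotypes was known when they were picked and is given below as a description, without a test. Each had 1 probe set, and all 10 matched RefSeq by both symbol and accession.

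RNA was measured in dorsal skin from embryos with an epidermal deletion of the corneodesmosin gene Cdsn (KO, 4 embryos) and from control embryos (WT, 4 embryos), in embryos of stage E18.5 on a background the labels give as C57B/6J. KO embryos carried KRT14-Cre(tg/0) and Cdsnfl/fl, and WT embryos carried the same KRT14-Cre(tg/0) with Cdsnwt/wt, so every animal had a Cre transgene under a keratin 14 promoter, which drives it in keratinocytes. All skins had been tape-stripped with a 22 mm disk and held on culture medium for 4 h at 37 °C, so no unstripped skin enters the comparison. The KO genotype is lethal at birth, and embryos were taken by caesarean delivery. The labels name separate embryos but give neither litter nor sex, so the errors measure the spread between these embryos.

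Keratinocytes end their life as flat, dead corneocytes whose plasma membrane is replaced by the cornified envelope, a shell of proteins that transglutaminases link to each other. Late cornified envelope proteins join this shell late, under the ones already linked, and their genes lie together with those of loricrin, filaggrin, the small proline-rich proteins and many S100 proteins in a chromosome region called the epidermal differentiation complex. In human skin the LCE1 group is known as the group of intact skin and the LCE3 group as the one induced by injury of the barrier. Cdsn encodes corneodesmosin, which helps hold corneocytes together at their junctions.

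Each embryo gave a log2 intensity for every probe set. Differences are KO minus WT on that scale, and a level of 1 probe set cannot be set against that of another. Cdsn itself was at 8.09, 8.51, 7.995 and 8.91 in KO skins 1 to 4, against 11.76, 11.82, 11.69 and 12.10 in WT skins 1 to 4. The Cdsn levels did not overlap, with KO low and WT high as the 8 labels have it, and the difference was −3.46 ± 0.20 (SE; limma adjusted p = 0.000125). On the first principal component, which held 43.6% of the variance, KO replicate 3 lay closest to the WT arrays, while the second component set WT replicate 1 off from all others; values without these arrays are given further on. The median of an array was 4.81 to 4.88 in KO and 4.70 to 4.80 in WT skin.

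All 10 genes were lower in KO skin than in WT skin. Their log2 differences, KO minus WT, lay between −2.85 and −1.38, with a median of −2.17, where the median over all 33793 probe sets was 0.09. Back on the linear scale, KO signals were 13.8% to 38.4% of the WT signals, and 22.2% at the median. In all 10 genes the 4 KO values lay below the 4 WT values, as was the case for 7.43% of all probe sets, and all 10 passed an adjusted p of 0.05 with a fall (limma, Benjamini-Hochberg over all probe sets), as did 6.08% of all probe sets (15.2% passed with a rise, 21.3% in either direction). The table they were picked from holds such genes, so nothing is read from either count. That table ends at falls of 0.5 on the log2 scale, and its smallest fall was −0.50004. Among probe sets that passed an adjusted p of 0.05, the largest fall outside it was −0.49984. All 10 genes lay far from that limit. In whole skin, fewer cells of a type and less RNA per cell cannot be told apart.

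Lce1e had the largest difference. Its log2 intensity was 5.87, 4.48, 6.23 and 6.11 in KO skins 1 to 4, against 8.37, 8.80, 8.32 and 8.60 in WT skins 1 to 4. KO skin 2 was the low extreme, and the highest KO value was 2.09 below the lowest WT value. The means were 5.67 ± 0.81 in KO and 8.52 ± 0.22 in WT skin (SD, n = 4 each), a difference of −2.85 ± 0.33 (SE). Without KO skin 2 the difference was −2.46, the smallest that any alternative gave for Lce1e.

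Lce1a2, with the next largest difference, varied much less among KO skins. It read 5.26, 5.04, 5.46 and 5.50 in KO skins, against 7.58, 8.20, 7.74 and 8.26 in WT skins. The KO values spanned less than the WT values, and the gap between the groups was again 2.09. The means were 5.32 ± 0.21 in KO and 7.95 ± 0.33 in WT skin (SD, n = 4 each), a difference of −2.63 ± 0.18 (SE). Lce1a1, the gene with the paired name, was at 4.22 ± 0.36 in KO and 6.39 ± 0.70 in WT skin (SD, n = 4 each), a difference of −2.16 ± 0.31 (SE). Its WT skin 4, at 7.34, was the high extreme, and the same skin was the highest WT sample for Lce1d (9.31, where the other WT skins read 7.84 to 8.47).

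The spread between embryos lay in opposite groups for Lce1k and Lce1l. Lce1k read 2.71, 2.58, 2.77 and 2.53 in KO skins, against 4.65, 5.21, 4.30 and 5.57 in WT skins. The KO values, at percentiles 12.3 to 15.9 of their arrays, were nearly level (2.65 ± 0.11) while the WT values spread (4.93 ± 0.57; SD, n = 4 each), and the difference was −2.28 ± 0.24 (SE). No background reading was used here, so whether Lce1k was above background in KO skin is not known. Lce1l read 4.81, 3.60, 3.03 and 3.97 in KO skins, against 5.80, 6.27, 5.95 and 6.28 in WT skins. Here the KO values were the ones that spread, with KO skin 1 highest and KO skin 3 lowest, and the difference was −2.22 ± 0.31 (SE). In KO skin its array percentile was as low as 19.4. Whether Lce1l was above background in every KO skin is therefore not known either, although it was kept when low probe sets were left out.

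Lce1d lay near the median difference, while Lce1b and Lce1c differed less. Lce1d was at 6.22 ± 0.46 in KO and 8.40 ± 0.66 in WT skin, a difference of −2.18 ± 0.32 (SE). Lce1b was at 8.01 ± 0.51 in KO and 10.03 ± 0.24 in WT skin, a difference of −2.02 ± 0.23 (SE; SD, n = 4 each). Lce1c was bright in all skins, at percentiles 97.3 to 98.6 of the probe sets in KO and 99.7 to 99.8 in WT skins, and differed by −1.90 ± 0.19 (SE), with means of 10.50 ± 0.38 in KO and 12.39 ± 0.20 in WT skin (SD, n = 4 each).

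Lce1f had the smallest difference. It read 7.49, 8.10, 8.23 and 9.09 in KO skins, against 9.58, 9.98, 9.39 and 9.48 in WT skins. KO skin 4 came within 0.30 of the lowest WT skin, the narrowest gap of the 10 genes. The difference was −1.38 ± 0.28 (SE), with means of 8.23 ± 0.66 in KO and 9.61 ± 0.26 in WT skin (SD, n = 4 each).

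Lce6a belongs to another branch of the late cornified envelope genes and is read by 23 probes, where the 9 Lce1 genes have 10 to 18. It read 6.38, 5.97, 6.14 and 6.78 in KO skins, against 8.22, 8.82, 8.23 and 8.24 in WT skins. The WT values were level apart from WT skin 2, and the groups were 1.44 apart. The difference was −2.06 ± 0.20 (SE), with means of 6.32 ± 0.35 in KO and 8.38 ± 0.30 in WT skin (SD, n = 4 each).

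**Figure D1:**
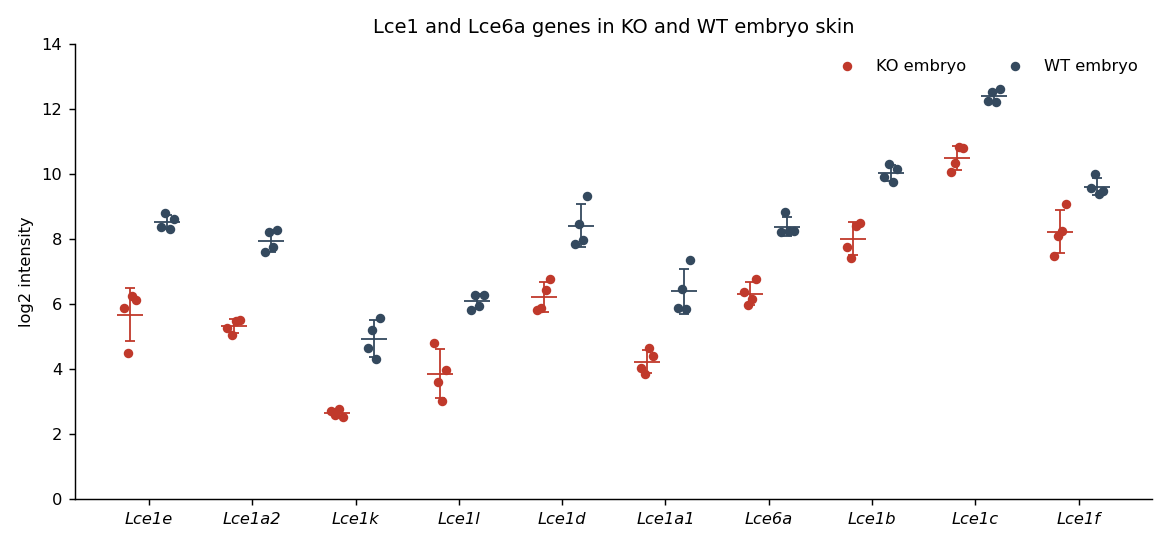
Log2 intensity (vertical axis) of the 10 genes in the 4 KO embryos (red, left of each pair) and the 4 WT embryos (dark, right). Points are embryos, bars the mean and SD; genes run from the largest difference, Lce1e at −2.85, to the smallest, Lce1f at −1.38, and in each gene all KO points lie below all WT points.

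Across the 10 genes the size of the difference showed little relation to the brightness of the probe set or to the number of probes. Pearson's r between the WT mean and the difference was 0.38, and between the probe number and the difference −0.05, each over 10 genes that share the same 8 arrays. In the authors' deposited table all 10 probe sets have annotation class 1, the class that 4763 of its 5460 probe sets have, while 697 have class 3. The table calls this class a cross-hybridisation type and does not explain its numbers. The Lce1 genes are close copies, and how far their probes bind each other's transcripts was not measured, so the value of a single gene is less certain than that of the group.

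The other 5 Lce1 genes were lower as well, and served as a comparison that the list of 10 did not include. Lce1j differed by −1.88 ± 0.18 (SE; limma adjusted p = 0.000354), Lce1m by −1.87 ± 0.17 (adjusted p = 0.000326) and Lce1g by −1.91 ± 0.29 (adjusted p = 0.00218). Lce1i (−1.53 ± 0.23, limma adjusted p = 0.002) and Lce1h (−1.47 ± 0.31, limma adjusted p = 0.00873) differed least. Their median was −1.87, inside the range of the 10 genes. Lce1h, Lce1i and Lce1j have class 3, and Lce1g and Lce1m class 1. Lce1g lay at percentiles 7.71 to 28.5 of its arrays in KO and 43.9 to 55.4 in WT skin, and Lce1i at 18.4 to 22.2 in KO and 35.8 to 57.0 in WT skin, so whether these genes were above background in KO skin is not known either. Both were dropped when low probe sets were left out. Lce1h missed the threshold without variance moderation (limma without eBayes, adjusted p = 0.0549). These 5 genes also stand in the authors' table of changed genes, and their fall was known beforehand.

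The proximal promoters of most of these Lce1 genes resembled each other, and they are shown because the genes moved together. RefSeq promoters (GRCm38.p6) were given for 9 of the 10 genes, Lce1f being the exception, and for 13 Lce1 genes in all. The 100 bases before the start of transcription are printed 5′ to 3′ on the strand of the gene for 6 of them, Lce1e and Lce1a2 with the largest differences, Lce1b, Lce1c on the opposite strand of the chromosome, and Lce1l and Lce6a, which were least like the rest of the 9. Capitals mark the run CACTGTCTCACAGG and the run ATAAAA, both chosen after the sequences were seen. The windows are chr3:92709075-92709174 (minus strand) for Lce1e, chr3:92670316-92670415 (minus) for Lce1a2, chr3:92656927-92657026 (minus) for Lce1b, chr3:92679147-92679246 (plus) for Lce1c, chr3:92851287-92851386 (minus) for Lce1l and chr3:92621661-92621760 (minus) for Lce6a.
Lce1e: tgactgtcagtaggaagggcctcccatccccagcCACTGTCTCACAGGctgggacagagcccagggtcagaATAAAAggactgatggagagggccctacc
Lce1a2: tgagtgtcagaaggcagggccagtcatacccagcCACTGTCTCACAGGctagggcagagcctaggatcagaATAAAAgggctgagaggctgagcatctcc
Lce1b: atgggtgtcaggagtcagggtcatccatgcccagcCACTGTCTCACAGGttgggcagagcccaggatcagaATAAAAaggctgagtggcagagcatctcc
Lce1c: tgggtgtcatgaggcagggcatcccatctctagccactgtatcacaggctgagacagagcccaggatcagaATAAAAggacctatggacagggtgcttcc
Lce1l: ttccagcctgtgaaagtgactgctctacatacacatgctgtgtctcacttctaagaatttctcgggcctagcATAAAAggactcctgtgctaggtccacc
Lce6a: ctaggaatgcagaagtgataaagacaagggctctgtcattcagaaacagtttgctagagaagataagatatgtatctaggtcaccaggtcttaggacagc

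The run of 14 bases, the longest that at least 5 of the 8 Lce1 windows among the 10 genes share letter for letter, is present in Lce1a1, Lce1a2, Lce1b, Lce1d and Lce1e, where it begins 65 or 66 bases before the start. Searched on both strands, from 250 bases before to 50 after the start, in all 32851 promoters, it was found in 6, which is 0.0183%, namely these 5 and Lce1h. It was picked from Lce1 promoters, so its presence there is no finding. Lce1c (−1.90), Lce1k (−2.28), Lce1l (−2.22) and Lce6a (−2.06) do not hold these exact letters. Their differences lay inside the range of the 6 genes that do, which ran from −2.85 for Lce1e to −1.47 for Lce1h. Whether the run has a part in the differences was not tested. The TATA-like run ATAAAA begins 28 to 31 bases before the start in Lce1a2, Lce1b, Lce1c, Lce1d, Lce1e, Lce1k and Lce1l, and it is in 12 of 13 Lce1 promoters, all 6 Lce3 promoters and 6069 of all 32851 promoters. In Lce6a its match, on the other strand, begins 219 bases before the start, outside the printed window. It overlaps the classical TATA box TATAAA, which was found in Lce1d, in Lce6a on the other strand, and in 13.6% of all promoters.

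Between pairs of the 8 Lce1 windows among the 10 genes, 49% to 86% of the letters were the same by edit distance, with a median of 72%, and Lce1b and Lce1a2 were the closest pair. Lce1l was less like the others, at 49% to 59%. Lce6a shared 42% to 49% with the Lce1 windows, and the Lce3 windows shared 40% to 54% with them. Not all Lce1 windows were alike: among the other Lce1 genes, Lce1m shared 45% to 51% and Lce1j 46% to 64% with the Lce1 windows, which overlaps the range of the Lce3 windows. Motifs of factors known in keratinocytes were searched on both strands in the 9 promoters: TGANTCA (AP-1, in 7.81% of all promoters), AACNGGTT (grainyhead-like, 2.09%), GGGTGTGG (KLF, 3.56%) and TTGCNNAA (C/EBP, 10.8%). None of these letters was found in any of the 9 promoters, from 250 bases before to 50 after the start.

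The 10 genes lie in 1 block of chromosome 3. From Lce6a to the gene before Lce3a, in RefSeq order, there are 16 genes, 10 of them described here. All 16 were named and lower in KO skin. Of all probe sets, 4.4% were in the authors' table of changed genes with a fall. The 10 were chosen with their fall known, and the block was ended where the direction turned. Its single direction is therefore no finding. The other 6 are Lce1g, Lce1h, Lce1i, Lce1j, Kprp, a proline-rich keratinocyte protein gene (−0.93 ± 0.21, SE; limma adjusted p = 0.0137), and 2310050C09Rik (−1.49 ± 0.19; limma adjusted p = 0.000955). Kprp missed the threshold without variance moderation (limma without eBayes, adjusted p = 0.0619).

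At both ends of this block the nearest named genes went in the opposite direction. Of the 6 Lce3 genes, which follow it, all were higher, by 0.84 to 2.57 on the log2 scale, led by Lce3d at 2.57 ± 0.38 (SE; limma adjusted p = 0.00198). Lce3d read 9.76, 10.86, 9.71 and 11.21 in KO skins, against 7.51, 8.10, 7.15 and 8.52 in WT skins, with no overlap, which 17.6% of all probe sets showed in this direction. The groups of Lce3e and Lce3f overlapped. Lce3c and Lce3d have annotation class 3. Lce3d and Lce3e passed whichever array was left out, and Lce3a, Lce3b, Lce3c and Lce3f did not. Without variance moderation Lce3d alone of the Lce3 genes passed (limma without eBayes, adjusted p = 0.0251). Lce3a, Lce3b and Lce3f were dropped when low probe sets were left out. With arrays centred on their medians 4 of the 6 Lce3 genes passed. On the other side of Lce6a, past the unnamed genes Smcp and Ivl, the 7 named Sprr genes of 16, for small proline-rich envelope proteins, were all higher, by 0.70 to 2.89. After centring 6 of the 7 passed, Sprr4 being the exception, and without variance moderation Sprr1b alone passed. With single arrays left out, Sprr2e missed the threshold in 6 cases, Sprr4 in 5 and Sprr2i in 4. Sprr2i was dropped when low probe sets were left out. Beyond the Lce3 genes, Crct1 (−0.65 ± 0.12, SE; limma adjusted p = 0.00483) and Lce1m were lower again. Further on, Flg2, Flg and Hrnr were lower and Tchhl1 higher. Beyond the Sprr genes, Lor was lower and Prr9 and Lelp1 were higher. Of 72 genes in the complex from S100a1 to S100a10, 45 were named, 23 higher and 22 lower; the 22 include the 10 genes chosen for their fall.

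**Figure D2:**
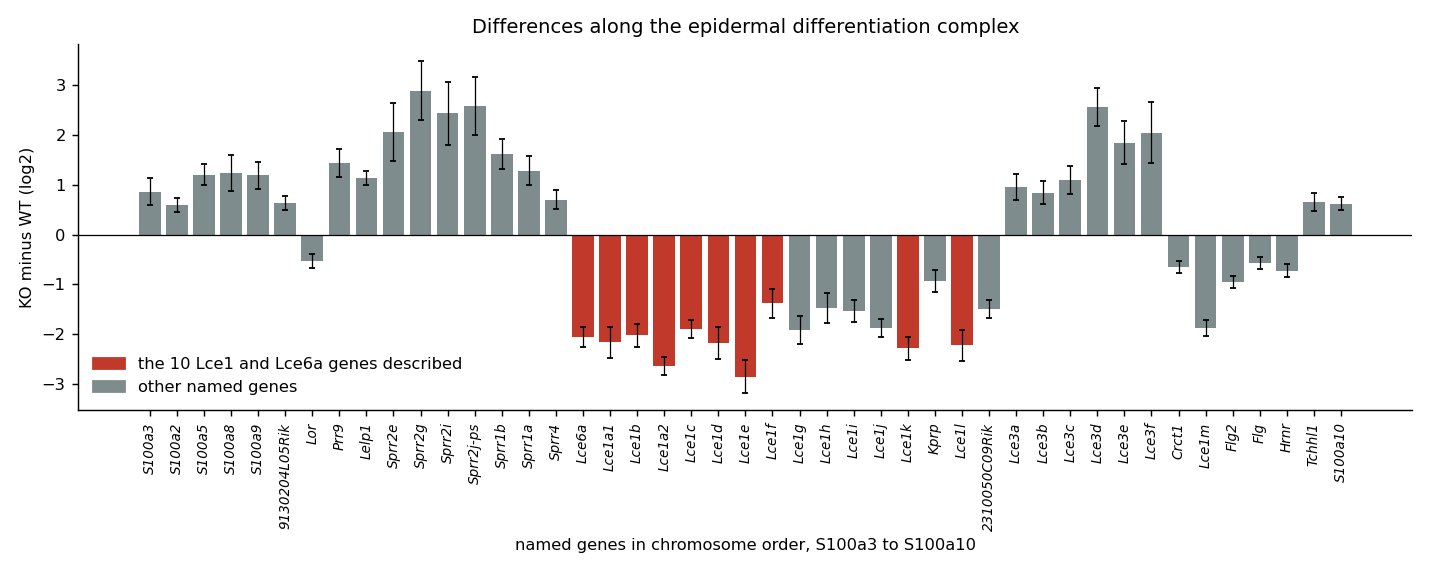
Log2 difference, KO minus WT, with its SE (vertical axis) for the 45 named genes of the epidermal differentiation complex in chromosome order (horizontal axis, not to scale). The 10 genes described (red) and the 6 others between Lce6a and Lce3a all point down, from −0.93 for Kprp to −2.85 for Lce1e, and the 6 Lce3 genes beside them point up.

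The wider set of late differentiation genes moved in both directions. Of 52 such genes that are not among the 10, 28 were named, 16 higher and 12 lower in KO skin. A gene is named only where it met the authors' criteria, as 11.8% of all probe sets did with a rise and 4.4% with a fall, so the 24 genes without a name did not meet them, were not measured or carry no symbol. The median of the 28 was 0.77, and that of the 10 Lce genes was −2.17. How the genes were picked shaped both medians, so neither is read against the other. The 28 include the other 5 Lce1 genes, at −1.91 to −1.47. Apart from Lce and Sprr genes, 7 were lower and 3 higher, with differences of −0.95 to 1.44.

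The filaggrin relatives, whose products fill the corneocyte, were lower by modest amounts. Flg2 differed by −0.95 ± 0.12 (SE; limma adjusted p = 0.00114), Hrnr by −0.72 ± 0.12 (adjusted p = 0.00356) and Flg by −0.57 ± 0.12 (adjusted p = 0.00839). Lor, which encodes the abundant envelope protein loricrin, was at 12.16 ± 0.13 in KO and 12.69 ± 0.24 in WT skin (SD, n = 4 each), a difference of −0.53 ± 0.14 (SE; limma adjusted p = 0.0241). It missed the threshold without KO replicate 1 (limma adjusted p = 0.0617), without KO replicate 2 (0.0635) and without variance moderation (0.0527). The keratin gene Krt78 differed by −0.66 ± 0.13 (SE; limma adjusted p = 0.00613). Higher were the proline-rich genes Prr9 (1.44 ± 0.28, limma adjusted p = 0.00681) and Lelp1 (1.13 ± 0.14, limma adjusted p = 0.000963), the envelope precursors Sprr1a (1.28 ± 0.29, limma adjusted p = 0.0125, and 0.0661 without variance moderation) and Sprr1b (1.61 ± 0.30, limma adjusted p = 0.00565), and Tchhl1 (0.65 ± 0.18, limma adjusted p = 0.0298), which did not pass once arrays were centred (limma adjusted p = 0.0567), nor without KO replicate 2 or 3 or WT replicate 1 or 3. Lelp1 lay at percentiles 9.24 to 15.3 of its arrays in WT and 23.5 to 30.7 in KO skin. Tchhl1 lay at 16.5 to 22.0 in WT and 19.8 to 33.4 in KO skin, and Prr9 at 23.1 to 45.5 and 46.4 to 59.9. Lelp1, Tchhl1 and Prr9 were dropped when low probe sets were left out, and whether they were above background is not known. The 12 falls all passed after centring, and 12 of the 16 rises did. Without variance moderation 9 of the 12 falls and 4 of the 16 rises passed. The number of rises that passed was 8 without KO replicate 2, 9 without KO replicate 4, 10 without WT replicate 1 and 9 without WT replicate 3.

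Of 41 regulators of keratinocyte differentiation, 12 were named, 2 lower and 10 higher. Of all probe sets, 11.8% met the authors' criteria with a rise and 4.4% with a fall, so nothing is read from this count. Gata3, a transcription factor needed for the epidermal barrier in mice, was at 8.18, 8.31, 8.33 and 8.26 in KO skins, against 8.95, 9.19, 9.31 and 9.21 in WT skins. Both groups were tight and far apart, with a difference of −0.90 ± 0.11 (SE; limma adjusted p = 0.00105). Dlx5, a homeobox factor, was the other lower gene (−0.71 ± 0.18, SE; limma adjusted p = 0.0213) and missed the threshold without KO replicate 2 (0.0513) and without variance moderation (0.0707). The AP-1 subunit gene Fosl1 was higher (2.01 ± 0.45 SE, limma adjusted p = 0.0125). Another AP-1 subunit gene, Junb, was higher as well (0.69 ± 0.17, limma adjusted p = 0.0179), as was the ETS factor gene Ehf (1.36 ± 0.31, limma adjusted p = 0.0132). Each of the 3 missed the threshold without variance moderation (limma adjusted p = 0.0721, 0.0596 and 0.07). Also higher were Ovol1, Cebpa, Cebpd, the vitamin D receptor gene Vdr, the oxidative stress factor gene Nfe2l2, and Ppard, by 0.57 to 0.94. The groups of Fosl1, Ehf and Cebpd overlapped. Ovol1, Cebpd and Ppard also missed the threshold without variance moderation (limma without eBayes, adjusted p = 0.0609, 0.117 and 0.0668). After centring 7 of the 10 rises passed. Cebpd and Ppard were among the exceptions, and both also missed with at least 6 of the 8 arrays left out in turn. The 29 others, among them Klf4 and Grhl3, were not named.

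Within each genotype, embryos that were high for a member of the group tended to be high for the others. In WT skin, replicates 1 and 3 lay below the WT mean for all 10 genes, replicate 2 above it for all 10, and replicate 4 above it for 8. In KO skin, replicate 2 lay below the KO mean for all 10 genes, replicate 4 above it for 9 and replicate 3 for 8. With the genotype mean removed, Pearson's r over the 8 arrays was above 0 in 42 of 45 pairs of genes, with a median of 0.51. The closest pair was Lce1a1 and Lce1d (0.94), followed by Lce1a1 and Lce1a2 (0.88). The genes share arrays, and these correlations are a description of 8 embryos.

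Lce1l was the exception. All 3 negative pairs held it, with Lce1c (−0.48), Lce1f (−0.30) and Lce1b (−0.16), and without Lce1l all 36 pairs were above 0, with a median of 0.64. It was highest in KO skin 1 and lowest in KO skin 3, where 8 of the genes lay above their mean. Its deviations there were 0.96 and −0.83. Whether Lce1l was above background in every KO skin is not known. Whether its low KO readings made it the exception was not tested. Within WT skin alone, with 4 embryos, all 45 pairs were above 0, and within KO skin alone 34 were.

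**Figure D3:**
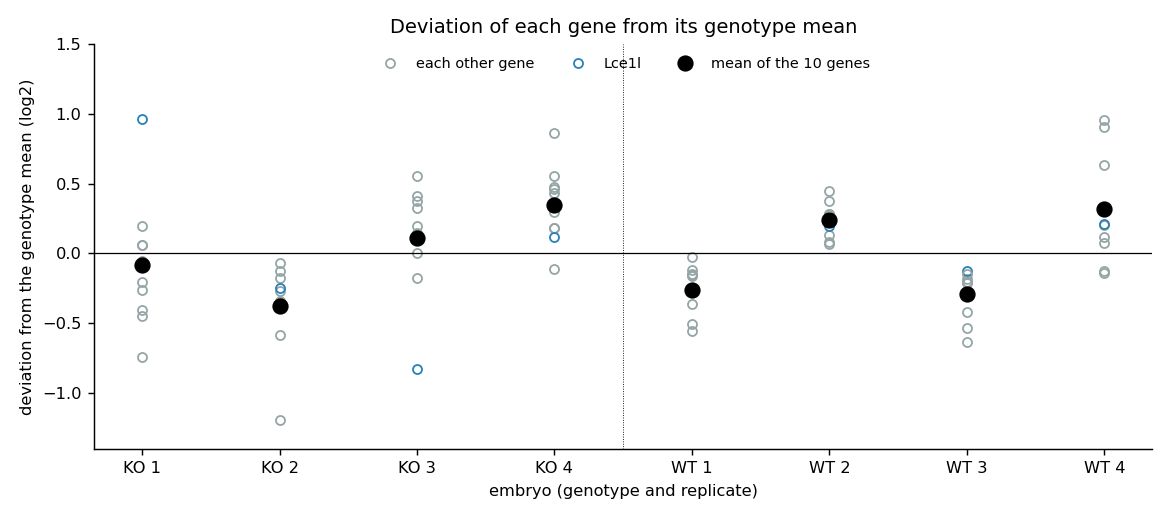
Deviation of each of the 10 genes from its genotype mean (vertical axis, log2) in the 4 KO and the 4 WT embryos (horizontal axis); open points are genes, Lce1l in blue, and filled points their mean. All 10 genes lie below 0 in KO 2, WT 1 and WT 3 and above 0 in WT 2, while Lce1l leaves the others in KO 1 and KO 3.

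The mean deviation of the 10 genes was set against the other genes in the same way. Over all 33793 probe sets the median r with it was 0.00, and the central 90% lay between −0.64 and 0.63. The other Lce1 genes had r of 0.50 (Lce1g) to 0.82 (Lce1m and Lce1j), and Krt78 had 0.73, Lor 0.63 and Kprp 0.61. Sprr and Lce3 genes were also above 0 in most cases, among them Sprr2i (0.57), Lce3f (0.56), Sprr2g (0.50) and Lce3d (0.50), although they differed between the genotypes in the opposite direction. Flg (−0.06) and Flg2 (−0.07) were near 0, Lce3a was at −0.62, and Cdsn was at 0.42. The 10 named genes with the highest r, of 5070 named genes outside the group, were Ccdc68 (0.95), Gm14218, Ang6, Bpifc, Frmpd1, Gm22997, Lipk (0.91), Chrna10, E130006D01Rik and Gm13589 (0.89). Of these, 4 were lower and 6 higher in KO skin, among the lower ones Lipk, an epidermal lipase gene (−0.71 ± 0.13, SE; limma adjusted p = 0.00503), and Bpifc (−0.56 ± 0.16; limma adjusted p = 0.0302).

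Markers of the cells in whole skin differed too. Of 8 epidermal markers 2 were named, Lor and Flg, both lower, with log2 intensities that summed to 24.3 to 24.8 in KO and 25.3 to 26.0 in WT skin. Of 6 hair follicle markers 3 were named, Krt25, Krt72 and Krt73, all higher, with sums of 20.9 to 23.8 in KO and 17.1 to 20.4 in WT skin. Of 5 leukocyte markers 3 were named, Cd74, Cd3e and Trem1, all higher, with sums of 18.8 to 19.2 in KO and 15.3 to 16.7 in WT skin. Single markers of muscle (Myh1, 1 of 4, by 1.28), adipocytes (Cidea, 1 of 3, by 0.80) and endothelium (Cldn5, 1 of 3, by 0.55) were named and higher too, and 0 of 5 fibroblast markers were named. All 9 named markers outside the epidermal list were higher in KO skin, and most markers of those lists were not named. A marker is named only where it met the authors' criteria. Of all probe sets, 11.8% met them with a rise and 4.4% with a fall, so nothing is read from this count. The part of these marker differences in the fall of the Lce genes was not tested. The keratin genes Krt5, Krt14, Krt1 and Krt10 were not named.

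The fall of the 10 genes was as large under the 3 other scalings and without the arrays that stood apart. Without KO replicate 3 and WT replicate 1 the median difference was −2.30. Centring each array on its median, which moved the median of all probe sets to −0.02, gave −2.28, quantile normalization −2.28 and cyclic loess −2.26. Over all alternatives the difference of a single gene ranged from −3.09 for Lce1e to −1.13 for Lce1f.

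**Figure D4:**
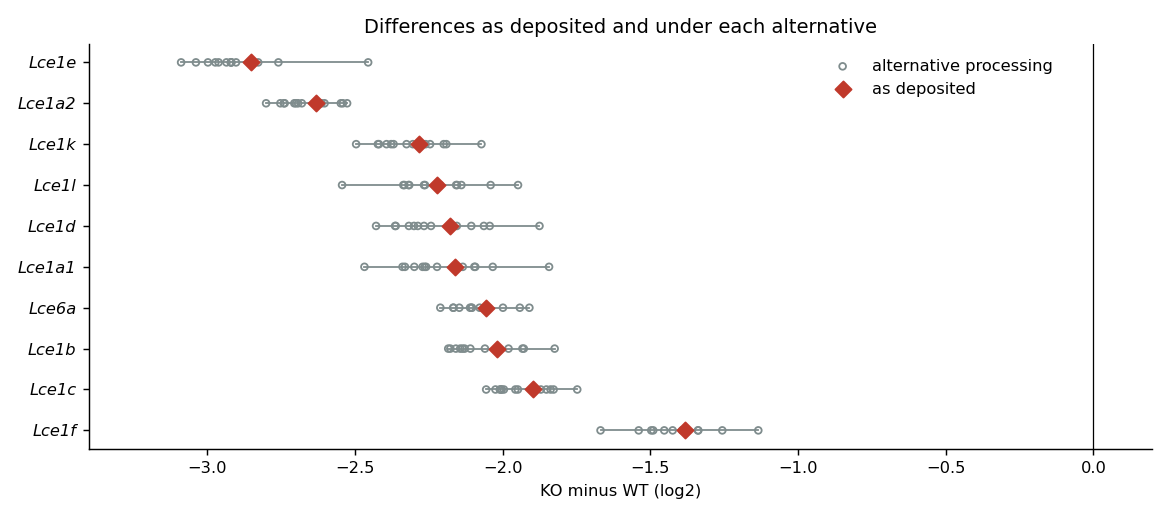
Log2 difference, KO minus WT (horizontal axis), of the 10 genes as deposited (red diamonds) and under each alternative processing (open circles, joined by their range). All values lie between −3.09 and −1.13, and Lce1f stays nearest to 0.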

How the data were processed

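Skin RNA of 8 embryos was hybridised to 8 arrays, Affymetrix Gene Mouse 2.0 ST per the file headers, from 9 µg of RNA per the labels' protocols. The authors deposited a log2 intensity for each of 33793 probe sets in each embryo; RMA is named in the submitters' processing notes, with no role, version or scaling given in the sources used here, nor a genome build. The authors' deposited table gives, per the file headers, mean log2 levels, the fold change as a ratio KO over WT, p-values and Benjamini-Hochberg adjusted p-values for 5460 probe sets, and all of them have adjusted p-values below 0.05 with log2 changes beyond 0.5 up or down. Its probe count and annotation class are whole numbers, entered here as a score as deposited.

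The values were fitted as deposited, with genotype as the single term, by lmFit and eBayes of limma 3.58.1 in R 4.3.3; p-values were adjusted over all probe sets at a threshold of 0.05; at the authors' criteria the fit returned the same 5460 probe sets. The fit was tested on simulated data. The number of arrays limits the precision. For genes with several probe sets, the brightest was used. Named were the 10 genes, all named genes of both lists, the 10 closest by correlation, and Cdsn, except 1 regulator that is counted but not reported by name here; 2310050C09Rik, and the remaining genes along the chromosome, came from the plan to describe the whole complex. The 10 genes, the lists and the tests were chosen with earlier results of these data known. Planned protein comparisons were not made. Alternatives were other scalings, a filter on low values, other variance settings, array weights, a block and left-out arrays.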

Additional observations from a re-analysis of the deposited data

Results flagged for a closer look

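Of 122 groups of 4 values checked over the named genes, 20 of them of the 10 Lce genes, 6 held a highest or lowest value whose gap to its nearest neighbour, as a share of the group's range, was above Dixon's critical value for 4 samples. By chance alone about 1 group in 20 is marked in this way, or 6.1 of these. Among the 10 genes it was Lce6a in WT replicate 2, which read 8.82 where the other WT skins read 8.22 to 8.24; all 10 genes lay above their WT mean in that embryo. Among the other genes, WT replicate 4 was the highest of its group for Lor (13.05, others 12.56 to 12.59), Sprr1b (11.38, others 9.98 to 10.17) and Nfe2l2 (9.51, others 9.09 to 9.13). KO replicate 1 was the lowest for Crct1 (8.21, others 8.43 to 8.47) and KO replicate 3 for Sprr1a (12.63, others 13.16 to 13.24).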

How the results depend on the processing

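For the 10 genes, all 169 values over 17 alternatives kept their direction and moved by less than the SD between embryos. Much of this was fixed beforehand. Other variance settings, the block and the filter on low values cannot change a difference. Leaving out an array cannot reverse groups that do not overlap, and moves a mean by only a part of the SD. Nothing is therefore read from the count of 169. Lce1k has no value with low probe sets left out. The median difference was −2.32 to −2.03 with single arrays left out. No gene of the 10 had several probe sets or another class, so both alternatives on these left it at −2.17. The deviations of same-numbered KO and WT embryos had r of −0.03, 0.14, 0.23 and 0.01 for numbers 1 to 4. Embryos 2 and 3 correlated best with their own number, and embryos 1 and 4 did not. The labels do not call the numbers pairs, and they were not taken as pairs. These values cannot tell whether same-numbered embryos shared a litter. The replicate block gave the same median, −2.17, with 15 rises and 12 falls in the late differentiation list, and 1 of the 2 falls among regulators passed (Dlx5 missed).

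Counts moved more. Over all probe sets 7194 passed, 5138 higher and 2056 lower; centring gave 2965 higher and 3075 lower, so that the share of rises was 49.1% in place of 71.4%. Quantile normalization gave 3229 and 3169, and cyclic loess 3227 and 3165. With low probe sets left out, where fewer were tested, 3298 passed, 879 of them lower. Without both arrays that stood apart 1358 were lower, and with single arrays left out 1335 (without WT replicate 3) to 1820, of 4821 to 6424 that passed. In the late differentiation list, rises numbered 9 with low probe sets left out, 4 without variance moderation and 8 to 15 with single arrays left out. Among regulators 3 rises and 1 fall passed without moderation, and 1 or 2 falls with single arrays left out. Of the 40 list genes, 17 passed in all alternatives that tested them, and 0 reversed. The median correlation of the 10 genes was 0.48 to 0.63 with single arrays left out and 0.54 after centring. The cause of these shifts was not tested.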
